A study of Homo sapiens with 3 samples.

Results

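The enzymes and transporters of glucose breakdown, 38 of the 22499 genes counted, were measured in drug-sensitive and drug-resistant breast cancer cells grown apart or together. The genes were taken by name: 20 glycolysis members, from the glucose transporter to the lactate exporters, and 18 members of pyruvate entry and the citrate cycle, and the pathways were kept apart. All 38 were found in the count tables. The cells were CAMA-1, a long-established breast cancer line that carries the estrogen receptor. Sensitive cells carried a Venus label. Ribociclib-resistant cells, grown for months with this inhibitor of the cell cycle kinases CDK4 and CDK6, carried an mCherry label. Spheroids of 2000 plated cells were 100% sensitive, 50% of each lineage or 100% resistant, and all of them received 1 µM ribociclib for 11 days, labelled as DMSO plus ribociclib, so no untreated cells were compared. Each composition was 1 single-cell RNA library made with 3′ chemistry, in which a unique molecular identifier (UMI) counts each captured molecule once. Both lineages descend from 1 cell line.

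Glycolysis splits glucose to pyruvate in the cytosol and yields ATP. Lactate dehydrogenase turns pyruvate to lactate, which monocarboxylate transporters carry out of the cell. Alternatively the mitochondrial pyruvate carrier and pyruvate dehydrogenase deliver it to the citrate cycle, which feeds reduced cofactors to respiration and carbon to biosynthesis. Many steps have several isoenzymes encoded by separate genes, and cancer cells are known for a high rate of glucose use.

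The deposited annotation divided the cells into 4 populations: 3329 sensitive cells grown alone, 2059 sensitive and 6292 resistant cells of the coculture, and 7557 resistant cells grown alone. Their summed UMIs were 96247731, 70896822, 199632131 and 270891547, and levels are given as CPM, the count of a gene per 1000000 of these. Where 4 values stand in a row, they follow this order. The luminal epithelial markers were present in all 4 populations, with EPCAM at 205 to 342 CPM and the estrogen receptor gene ESR1 at 14.2 to 20.2 CPM. Of 11 matched markers of other cell types the highest was COL1A1 at 3.61 CPM in sensitive coculture cells. With 1 library per condition there were no replicates and no test was possible, because cells of 1 library are not replicates. Intervals are 95% and cover counting error only. Differences are log2 ratios of CPM with a pseudocount of 1 CPM, which understates the change of low genes, for genes with at least 50 UMIs over the pair of populations, and a member is called at a 1.5-fold difference or more on that scale. A median of 20.9% of a sensitive monoculture cell's UMIs came from mitochondrially encoded genes, against 17.3%, 15.2% and 15.5% in the other 3. The share of G1 cells was 89.0% in the sensitive monoculture and 55.3%, 49.7% and 50.0% in the others. The part of these differences in the results was not tested, and for the main members values in G1 cells or in cells under 15% mitochondrial UMIs are given, a cap on the cells that does not match the populations. The libraries shared 34 to 60 cell barcodes by pair, of which 7 to 17 were among the annotated cells.

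Of the 38 members, 36 passed the UMI minimum in every comparison. The neuronal enolase gene ENO2 did not, at 0.125, 0.127, 0.0651 and 0.0628 CPM. The lactate dehydrogenase B gene LDHB had no UMI in any of the 4 populations, which allows at most 0.0312 CPM in the sensitive monoculture cells and 0.0111 CPM in the resistant monoculture cells. Over every deposited barcode, LDHB had 1 UMI, in the coculture library. LDHA, which encodes the other main subunit of the enzyme, stood at 309, 311, 283 and 358 CPM. All lactate dehydrogenase UMIs of these 2 genes in the annotated cells were LDHA, and nearly all enolase UMIs, 99.97% in each population, were ENO1.

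**Figure D1:**
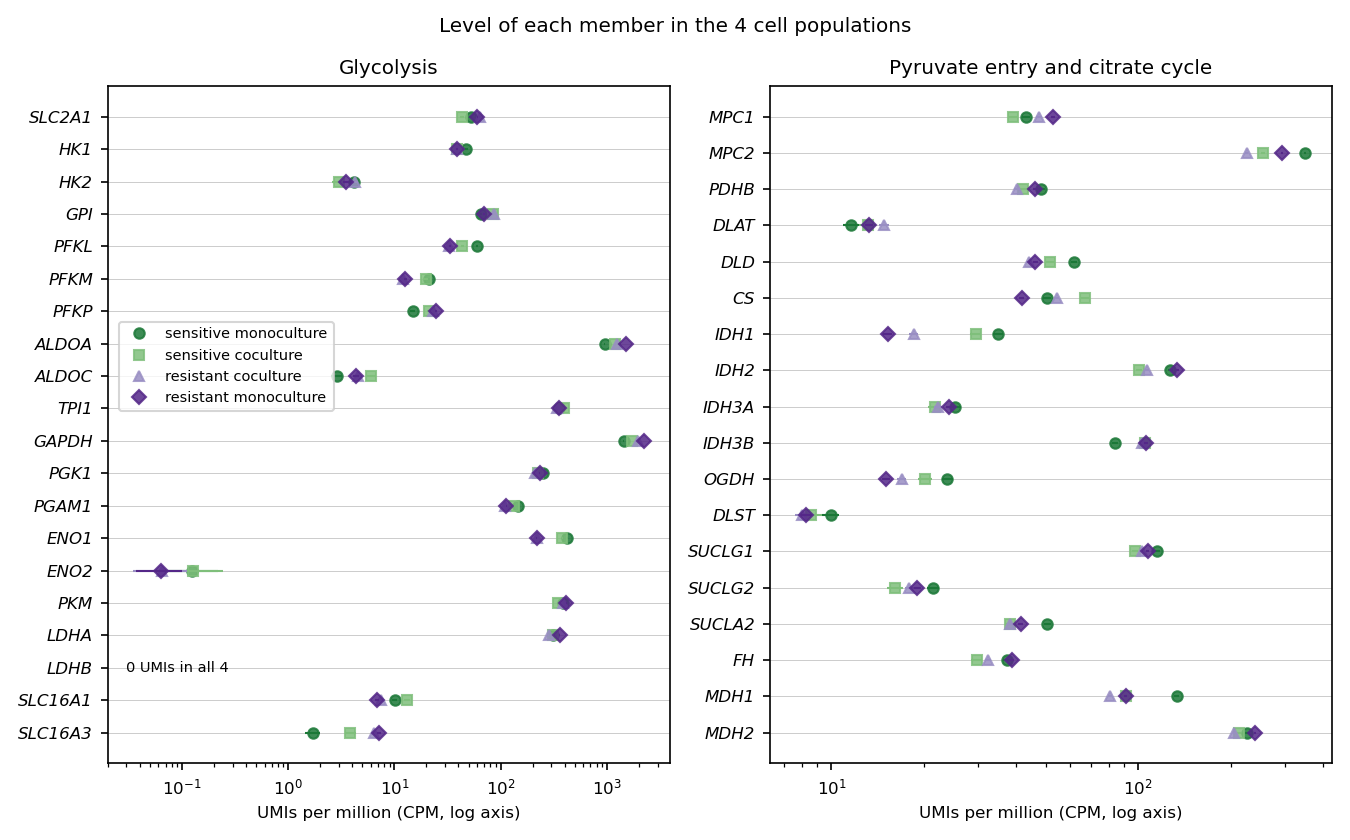
Levels of the 38 members in the 4 populations, in CPM on a log axis, with 1 point per population and exact Poisson intervals as horizontal lines, mostly narrower than the points. LDHB had 0 UMIs, SLC16A3 ran from 1.69 CPM in the sensitive to 7.15 CPM in the resistant monoculture, and most other members lay close together across populations.

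Short promoter stretches are shown because many glycolysis genes are known targets of hypoxia-inducible factors, and these members carry the differences between the lineages. Of the 10 members called between the monocultures or within the coculture, 8 had a RefSeq entry, and each of these had a match to the hypoxia response core, the letters those factors bind, ahead of a start site. They come from RefSeq on GRCh38.p14, 5′ to 3′ on the gene's strand, and the capitals mark the match nearest to a start.
SLC16A3, chr17:82234865-82234894, + strand: cgtcgtgggtggGCGTGgagcttgcacagc
PFKP, chr10:3104579-3104608, + strand: acattctcagtgcgtggGCGTGaaccccac
ALDOA, chr16:30064374-30064403, + strand: ggcagggaggccACGTGatccgagtcccct
GAPDH, chr12:6535172-6535201, + strand: ctctgcggggtcACGTGtcgcagaggagcc
ENO1, chr1:8878741-8878770, - strand: ggagctgaggggGCGTGccccggaggcggg
PFKM, chr12:48105347-48105376, + strand: agatccagagatCACGTtagggtacaccaa
PFKL, chr21:44299877-44299906, + strand: tgctcagggcccGCGTGacattgcacaggt
IDH1, chr2:208255154-208255183, - strand: tggcgattggagGCGTGtcgggggcggggc
The search took ACGTG and GCGTG on both strands of the 250 bases before each start, and the match in PFKM is ACGTG on the opposite strand. In ALDOA and GAPDH the match lay within CACGTG, the E-box, which reads the same on both strands and was held by 6.32% of all promoters. The PFKP stretch holds a further match left in lower case. Of the genes in the RefSeq table, 47.4% had a match in at least 1 promoter, as did 15 of the 19 glycolysis members with an entry and 10 of 17 citrate cycle members. Counted by promoter the shares were 43.2% of all promoters, 51.2% of the glycolysis promoters and 50.0% of the citrate cycle promoters. A stretch that several gene entries share was counted once over all promoters, but not within the lists. The 19 glycolysis genes had 43 promoters in the table, and all 27305 genes had 34943. SLC16A1 and OGDH had no entry. A match is a description of the letters only. Matches stood both ahead of genes that were higher in resistant cells and ahead of genes that were lower.

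The monocultures showed how the lineages differed when grown apart under the drug. The lactate exporter gene SLC16A3, the muscle aldolase gene ALDOA, the platelet-type phosphofructokinase gene PFKP and GAPDH were higher in resistant cells. ENO1, the liver and muscle phosphofructokinase genes PFKL and PFKM, and from the citrate list the cytosolic isocitrate dehydrogenase gene IDH1 and the oxoglutarate dehydrogenase gene OGDH, were lower. Of the 18 glycolysis members that passed the minimum, 4 were called higher and 3 lower, and of the 18 citrate members 0 were called higher and 2 lower. Over all 12970 genes that passed, 6.66% were called higher and 12.5% lower. The median log2 ratio was 0.04 for glycolysis, with 9 members above and 9 below 0. It was -0.13 for the citrate list, with 6 above and 12 below, against -0.07 for all genes, of which 42.2% lay above 0. Each list thus held members on both sides of 0. The glycolysis median was below 0 under 5 alternatives, among them -0.117 in cells under 15% mitochondrial UMIs and -0.039 in G1 cells. All genes had a median of -0.107 in G1 cells, below that of glycolysis. Their median under the 15% limit is not given here, so -0.117 does not set glycolysis apart from all genes. Another of the 5, a total without mitochondrially encoded genes, moves all genes by nearly the same amount. The glycolysis median was also below 0 in S cells, at -0.088 against -0.073 for all genes, and in G2M cells, at -0.087 against -0.057. It was thus below 0 in each phase taken alone, but below all genes only in S and G2M cells.

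SLC16A3 (chromosome 17, 80175810 to 80219005, GRCh37) encodes the monocarboxylate transporter MCT4, known for exporting lactate from cells with much glycolysis. It had 1.69 and 3.84 CPM in sensitive cells of the monoculture and the coculture, and 6.42 and 7.15 CPM in resistant cells of the coculture and the monoculture. Each population lay above the one before it, and the counting intervals of neighbours did not overlap. Between the monocultures the ratio of CPM was 4.22 (3.6 to 4.98), a log2 ratio of 1.6 with the pseudocount. Within the coculture the log2 ratio of resistant over sensitive cells was 0.62, and between the sensitive populations it was 0.84. The direction held in every alternative in which the gene passed the minimum, although a pseudocount of 10 CPM took it to 0.55, short of 1.5-fold. In cells under 15% mitochondrial UMIs the monocultures still differed by 1.26. Between the sensitive populations the same limit left SLC16A3 uncalled.

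SLC16A1 encodes MCT1, which carries lactate in either direction and is widely expressed. Its levels were 10.0, 13.2, 7.46 and 6.84 CPM, so that both resistant populations lay below both sensitive ones. The log2 ratio of resistant over sensitive cells was -0.49 between the monocultures and -0.74 within the coculture, where SLC16A1 was called lower. In cells under 15% mitochondrial UMIs these were -0.53 and -0.72. SLC16A3 made up 14.5% (12.5 to 16.7) of the 1127 UMIs of the pair in the sensitive monoculture and 51.1% (49.5 to 52.7) of 3791 UMIs in the resistant one. In the coculture its share was 22.6% (20.2 to 25) in sensitive and 46.2% (44.4 to 48.1) in resistant cells. In G1 cells alone the shares were 15.4%, 27.4%, 55.8% and 60.9%.

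The phosphofructokinases carry out the committed step of glycolysis as tetramers of liver, muscle and platelet subunits. PFKP (chromosome 10, 3108525 to 3179910) had 14.8, 21.1, 23.0 and 24.8 CPM. PFKL (chromosome 21, 45719934 to 45747259) ran the other way, with 59.9, 43.6, 32.6 and 33.6 CPM. PFKM (chromosome 12, 48498922 to 48540187) had 21.1 and 19.6 CPM in the sensitive populations and 12 and 12.6 CPM in the resistant ones. Between the monocultures the log2 ratios were 0.71 for PFKP, -0.82 for PFKL and -0.70 for PFKM.

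The makeup of the family differed in the same way. PFKP made up 15.5% (14.7 to 16.2) of the 9222 phosphofructokinase UMIs in the sensitive monoculture and 35.0% (34.3 to 35.6) in the resistant one. Within the coculture its share was 25% (23.9 to 26.2) in sensitive and 34.0% (33.2 to 34.8) in resistant cells. PFKL made up 62.5%, 51.7%, 48.2% and 47.3%, and PFKM 22.0% and 23.3% in the sensitive populations and 17.7% and 17.8% in the resistant ones. PFKP was also higher in cycling cells, and in G1 cells alone its share was 14%, 20.1%, 29% and 30.1%. The log2 ratio of PFKP between the monocultures was 0.50 in G1 cells and 0.49 in cells under 15% mitochondrial UMIs, both short of 1.5-fold. PFKL gave -0.91 and -0.52, of which the second was short of it, and PFKM gave -0.68 and -0.63. A pseudocount of 10 CPM also took PFKP and PFKM below the threshold.

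**Figure D2:**
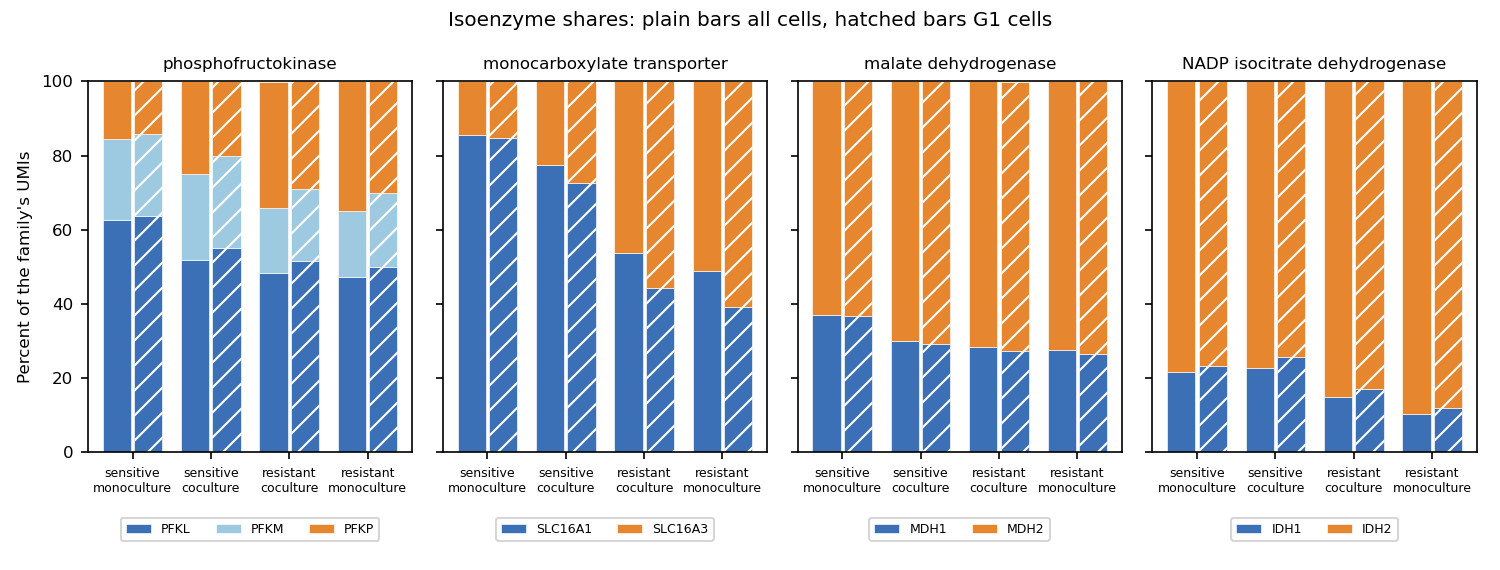
Share of each gene in the UMIs of its isoenzyme family, in percent, for the 4 populations, with plain bars for all cells and hatched bars for G1 cells. PFKP was 15.5% of its family in the sensitive and 35.0% in the resistant monoculture, SLC16A3 was 14.5% and 51.1%, and MDH1 was at 37.1% in sensitive monoculture cells and at 27.5% to 29.9% in the other 3 populations.

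ALDOA and GAPDH, which encode an aldolase and the glyceraldehyde phosphate dehydrogenase of the next steps, followed the same order of populations. ALDOA (chromosome 16, 30075485 to 30081778) had 952, 1201, 1245 and 1519 CPM. GAPDH (chromosome 12, 6643678 to 6647540) had 1434, 1717, 1964 and 2244 CPM. The log2 ratios between the monocultures were 0.68 and 0.65. Within cells under 15% mitochondrial UMIs, 461 in sensitive and 3445 in resistant monoculture, the log2 ratio was 0.27 for ALDOA and 0.20 for GAPDH, and neither was called. In cells with 20% to 30%, 1877 in sensitive and 1490 in resistant monoculture, ALDOA had 822 and 1297 CPM and GAPDH 1186 and 1898 CPM, so the gap remained in cells of a high mitochondrial share. Without the mitochondrially encoded genes in the total the ratios were 0.60 and 0.57, and GAPDH fell below the threshold there too, as it did at 0.51 without the sensitive monoculture cells of the authors' cluster 8. GAPDH has 65 named pseudogenes in the annotation, so its counts are uncertain where reads are shared with these copies, as are those of PGAM1 with 13, LDHA with 6, PKM with 5, and TPI1 and ENO1 with 4 each.

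ENO1 (chromosome 1, 8921059 to 8939249) encodes the main enolase, a late step of glycolysis. Sensitive cells had 424 CPM alone and 379 CPM in coculture, and resistant cells had 218 CPM alone and 221 CPM in coculture, a split by lineage. The ratio of the monocultures was 0.514 (0.507 to 0.52), a log2 ratio of -0.96, and within the coculture the log2 ratio was -0.78. ENO1 was called in both comparisons under all 9 alternatives. In cells with 20% to 30% mitochondrial UMIs it had 377 CPM in sensitive and 154 CPM in resistant monoculture cells, and in cells under 10% it had 592 and 299 CPM.

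The largest log2 ratio of the citrate list between the monocultures was that of IDH1 (chromosome 2, 209100953 to 209130798), which makes NADPH in the cytosol. It had 34.9, 29.5, 18.5 and 15.2 CPM, a log2 ratio of -1.15 between the monocultures and -0.64 within the coculture. In G1 cells these were -1.09 and -0.66, and in cells under 15% mitochondrial UMIs -0.96 and -0.45, the last short of 1.5-fold. The mitochondrial isoenzyme gene IDH2 had 127, 101, 107 and 134 CPM, without a split by lineage. IDH1 made up 21.5% (20.9 to 22.2) of the UMIs of this pair in the sensitive monoculture and 10.2% (9.91 to 10.5) in the resistant one, and in the coculture 22.7% in sensitive and 14.8% in resistant cells. OGDH, which encodes the first component of the oxoglutarate dehydrogenase complex, had 23.9, 20.2, 17.0 and 15.1 CPM. Its log2 ratio between the monocultures was -0.63, close to the threshold of 1.5-fold, and 4 of 9 alternatives left it uncalled. It was -0.69 in G1 cells and -0.68 in cells under 15% mitochondrial UMIs. IDH3B, a subunit gene of the NAD-dependent isocitrate dehydrogenase, and MPC1, a subunit gene of the pyruvate carrier, were the highest of the citrate list at 0.33 and 0.28.

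**Figure D3:**
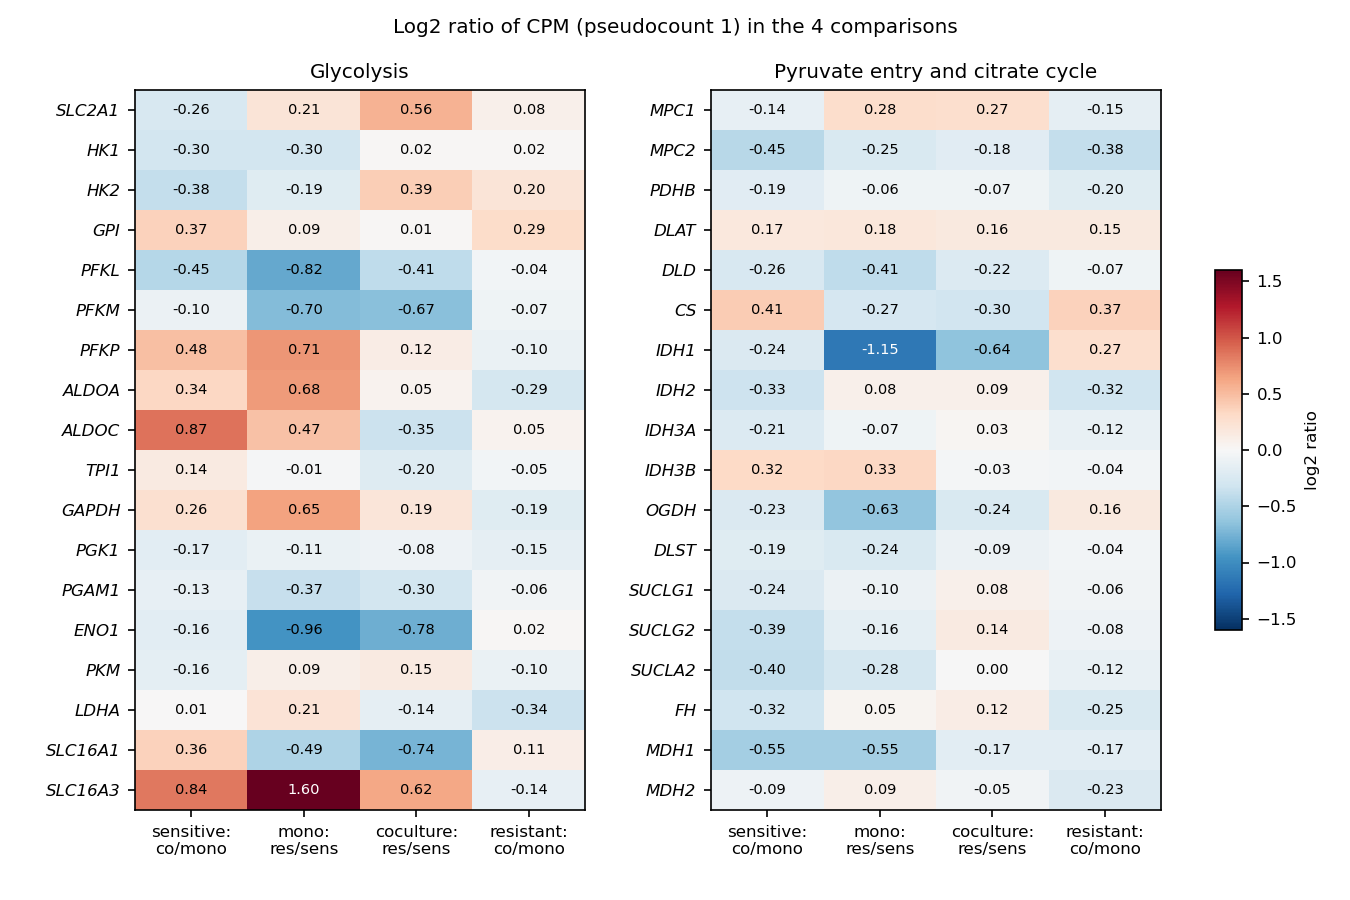
Log2 ratio of CPM for the 36 members that passed the UMI minimum, in 4 comparisons: sensitive cells coculture over monoculture, monocultures resistant over sensitive, coculture resistant over sensitive, and resistant cells coculture over monoculture. Red is higher and blue lower in the first-named population, and the values between the monocultures run from -1.15 for IDH1 to 1.6 for SLC16A3.

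Fewer members were called between sensitive cells of the coculture and the monoculture. Of the glycolysis members, the brain aldolase gene ALDOC and SLC16A3 were called higher in coculture and none lower, and no citrate member was called. Of 12327 genes, 5.13% were called higher and 5.91% lower. The glycolysis median was -0.04, with 9 members above and 9 below 0, near the -0.05 of all genes. In the citrate list 15 of 18 members lay below 0, with a median of -0.23. Of all genes 43.6% lay above 0.

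ALDOC had 2.86, 6.07, 4.54 and 4.35 CPM and was thus highest in sensitive coculture cells. Its log2 ratio was 0.87 over the monoculture, and 0.47 within cells under 15% mitochondrial UMIs, where SLC16A3 gave 0.48, so that neither was called there. PFKP followed at 0.48. At the other end were PFKL at -0.45, the hexokinase genes HK2, at 4.17 and 2.98 CPM in monoculture and coculture, and HK1, at 47.7 and 38.6 CPM, with log2 ratios of -0.38 and -0.30. SLC2A1, which encodes the glucose transporter GLUT1, had 52.1 CPM in sensitive monoculture and 43.3 CPM in sensitive coculture cells. GAPDH, at 0.26 over all cells, gave -0.07 within cells under 15% mitochondrial UMIs, but was higher in coculture in cells from 10% to 20%, at 1867 against 1696 CPM, and from 20% to 30%, at 1361 against 1186 CPM. LDHA gave 0.01 over all cells and -0.24 under 15%.

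The lower citrate values in coculture were spread over the list. MDH1, the cytosolic malate dehydrogenase gene that takes part in the malate-aspartate shuttle, had 133, 90.9, 81.0 and 91.1 CPM, with the sensitive monoculture above the other 3 populations. Its log2 ratio in sensitive cells was -0.55, short of 1.5-fold, and -0.60 in G1 cells and without the mitochondrially encoded genes in the total, where it was called lower. MDH1 made up 37.1% (36.6 to 37.6) of malate dehydrogenase UMIs in sensitive monoculture cells and 29.9% (29.3 to 30.5), 28.3% and 27.5% in the others. MPC2, a subunit gene of the pyruvate carrier, had 350, 256, 226 and 294 CPM, and MPC1 had 43.2, 39.2, 47.5 and 52.8 CPM. MPC1 thus made up 11.0%, 13.3%, 17.4% and 15.2% of the pair.

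Citrate synthase, encoded by CS and the entry reaction of the cycle, was the highest of the citrate list in coculture. It had 50.3 CPM in sensitive monoculture and 67.2 CPM in sensitive coculture cells, a log2 ratio of 0.41, and 41.7 CPM in resistant monoculture and 54.3 CPM in resistant coculture cells, a log2 ratio of 0.37. Both lineages thus had more CS in the coculture library. In cells under 15% mitochondrial UMIs these ratios of CS were 0.33 and 0.38, and MPC2 in sensitive cells gave -0.49. IDH3B followed in sensitive cells at 0.32, with 84.2 CPM in sensitive monoculture and 103 to 106 CPM in the other 3 populations. The succinyl-CoA ligase genes SUCLA2, SUCLG2 and SUCLG1 gave -0.40, -0.39 and -0.24. Fumarase, encoded by FH, gave -0.32 and IDH2 gave -0.33. The remaining members, PDHB, DLAT and DLD of the pyruvate dehydrogenase complex, IDH3A, DLST and MDH2, lay between -0.26 and 0.17.

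Within the coculture both lineages shared 1 library, so this comparison was made inside it. Of the glycolysis members 1 was called higher in resistant cells, SLC16A3, and 3 were called lower, ENO1, SLC16A1 and PFKM. Of the citrate members 0 were called higher and 1 lower, IDH1. The background was 2.04% higher and 4.09% lower of 12774 genes. Medians were -0.04 for each pathway and 0.00 for all genes. SLC2A1 came next after SLC16A3, with 43.3 CPM in sensitive and 64.1 CPM in resistant cells of the coculture and a log2 ratio of 0.56, followed by HK2 at 0.39. PFKM had a log2 ratio of -0.67. In the citrate list MPC1 at 0.27 and DLAT, at 13.2 and 14.8 CPM, with 0.16 were highest, and CS at -0.30 was the lowest after IDH1. Of 1263 coculture barcodes within the limits and with at least 2 mVenus UMIs, 136 also held mCherry, and over all 1263 mCherry stood at 7.57% of its level in the resistant monoculture. The annotated sensitive coculture cells held no mCherry UMI, and whether the mixed barcodes hold free RNA or are doublets was not tested. Subtracting this share of resistant-cell RNA from the sensitive coculture cells, as an alternative that assumes free RNA, added SLC2A1 to the members called higher, at 0.61, and left ENO1 at -0.83 and SLC16A1 at -0.79.

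Resistant cells differed little between coculture and monoculture. No member of either pathway was called, against 0.669% of 13156 genes called higher and 0.0304% lower. The medians were -0.05 for glycolysis, -0.10 for the citrate list, in which 14 of 18 members lay below 0, and 0.03 for all genes. Of all genes 56.7% lay above 0. The lowest glycolysis values were LDHA at -0.34, ALDOA at -0.29 and GAPDH at -0.19, and the highest were the glucose phosphate isomerase gene GPI at 0.29, with 69.8 CPM in monoculture and 85.6 CPM in coculture, HK2 at 0.20 and SLC16A1 at 0.11. In the citrate list MPC2 at -0.38 and IDH2 at -0.32 were lowest, and CS at 0.37 and IDH1 at 0.27 highest. GPI was higher in the coculture library in both lineages, at 84.9 CPM against 65.4 CPM in sensitive cells. Over the 4 comparisons the other glycolysis members, TPI1, PGK1, PGAM1 and PKM, ranged from -0.37 for PGAM1 between the monocultures to 0.15 for PKM within the coculture. At a lower threshold of 0.32 on the log2 scale, 1 member was higher and 3 were lower, against 7.46% and 1.76% of genes. The same threshold gave 9 glycolysis and citrate members lower between the monocultures, against 26.5% of genes, and 6 higher, against 15.4%. Within the coculture it gave 3 higher, against 8.12%, and 6 lower, against 11.6%. In sensitive cells it gave 7 in each direction, against 13.3% higher and 19.3% lower. Comparisons here that share a population, such as sensitive monoculture, are not independent of each other.

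Summed over the list, glycolysis made up 4542 CPM (4529 to 4556) in the sensitive and 5717 CPM (5708 to 5726) in the resistant monoculture, and 4984 and 5037 CPM in the sensitive and resistant cells of the coculture. GAPDH was a large part of this, and without it the sums were 3109, 3267, 3074 and 3473 CPM. The citrate list summed to 1454 CPM (1447 to 1462) in sensitive monoculture and 1241, 1180 and 1335 CPM in the others. Per cell, thinned to 5000 UMIs, the median count of glycolysis UMIs was 20, 24, 24 and 28, with the 10th and 90th percentiles at 12 and 33 in sensitive monoculture and at 18 and 39 in resistant monoculture cells, so that the ranges of cells overlapped widely. No cell was left out by the thinning. The citrate list had a median of 7 UMIs in sensitive monoculture and 6 in each of the others. Before thinning, the medians per 10000 UMIs were 39.8, 49.1, 49.4 and 56.2 for glycolysis and 14.2, 12.3, 11.7 and 13.2 for the citrate list.

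In each population the glycolysis sum was lower in cells with a higher mitochondrial share, also where mitochondrially encoded UMIs were left out of the total. Across the cells of each population, which share a library, Spearman's rho of the thinned glycolysis count with the mitochondrial percent was -0.33, -0.46, -0.28 and -0.31. With total UMIs per cell it was 0.40, 0.21, 0.10 and 0.14. The thinned counts were drawn from totals that include mitochondrially encoded UMIs, so a higher mitochondrial percent lowers them by itself. For the citrate list the rho with the mitochondrial percent was -0.16, -0.14, -0.14 and -0.18. Median UMIs per cell were 27620, 34060, 30690 and 35440, and the part of depth was not tested. As CPM of non-mitochondrial UMIs, glycolysis in sensitive monoculture cells was 6953 in the 76 cells under 10%, 6103 in those from 10% to 20% and 5261 in those from 20% to 30%. In resistant monoculture cells it was 7110 in the lowest and 6290 in the highest of these classes. In cells under 10% the sensitive monoculture, at 6953, lay close to the resistant monoculture, at 7110. The citrate list had 1760, 1836 and 1817 in the 3 classes of sensitive monoculture cells and 1609 and 1529 in the lowest and highest classes of resistant monoculture cells, so the sensitive monoculture cells had the highest citrate sum in each class.

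**Figure D4:**
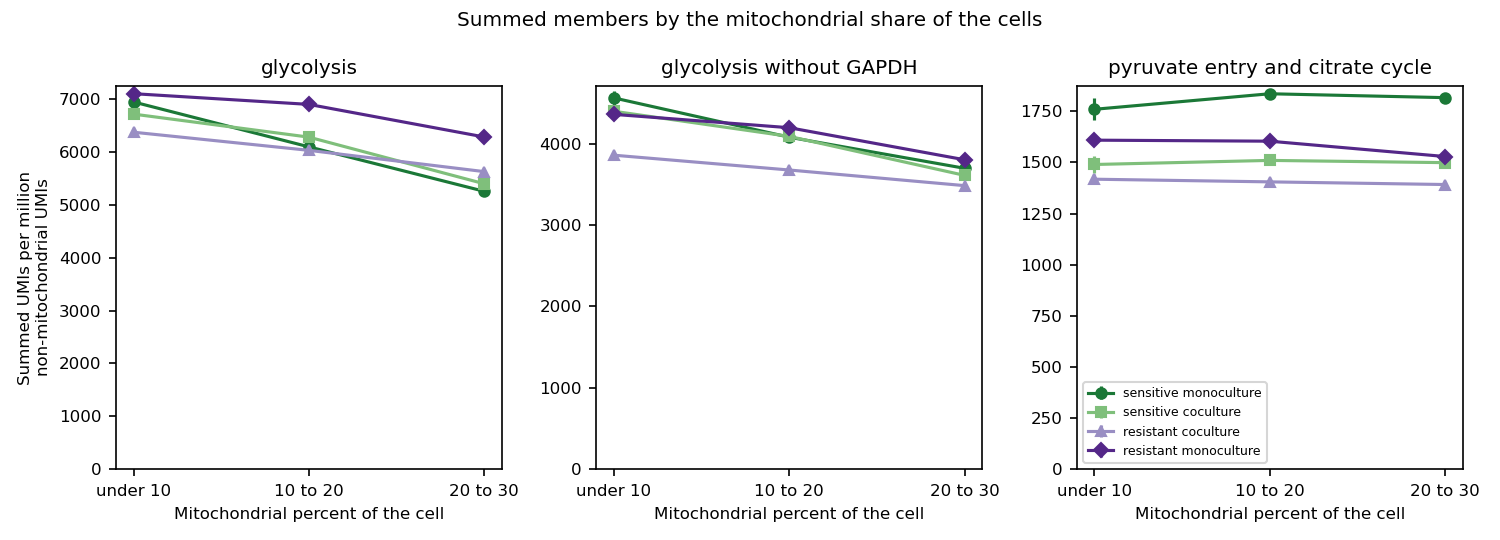
Summed UMIs of glycolysis, glycolysis without GAPDH, and pyruvate entry and citrate cycle members as CPM of non-mitochondrial UMIs, by class of the cells' mitochondrial percent and population, with Poisson intervals. Glycolysis in sensitive monoculture cells was 6953 in the class of lowest and 5261 in that of highest mitochondrial percent, and their citrate list lay between 1760 and 1836.

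Among the 3329 sensitive monoculture cells, 681 formed the cluster numbered 8 in the authors' clustering, with a glycolysis sum of 3078 CPM, against 4613 CPM in the 1945 cells of cluster 4, the main cluster of this culture. GAPDH had 660 CPM (647 to 673) in cluster 8 and 1505 CPM in cluster 4, SLC2A1 34.3 and 58.9 CPM and LDHA 199 and 309 CPM. In log2 ratios of cluster 8 over cluster 4, 14 of 18 glycolysis members lay below 0, with a median of -0.24, against 0.06 for all genes, and 3 were called lower and 0 higher, where 5.34% of 11450 genes were called lower and 6.25% higher. The citrate list had a median of -0.08 and no called member. Cells of cluster 8 held fewer UMIs on average than those of cluster 4, and the part of depth in these values was not tested. The clusters were made from expression in these same cells, so these values describe the clusters and test nothing. Whether the members were among the variable genes used for clustering was not checked.

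The deposited cell cycle phase allowed each population to be split into G1 and cycling cells in S or G2M. The glycolysis median of cycling over G1 cells was 0.21, 0.10, 0.07 and 0.11, and that of the citrate list was 0.08, 0.12, 0.06 and 0.11, against -0.005, 0.021, 0.017 and 0.031 for all genes. For G2M over G1 cells alone, the glycolysis and citrate medians were 0.002 and 0.030 in resistant coculture cells, against 0.044 for all genes, and 0.071 and 0.086 in resistant monoculture cells, against 0.069. PFKP was higher in cycling cells of each population, at 0.74, 0.67, 0.52 and 0.59, and so was SLC16A1, at 0.41, 0.46, 0.60 and 0.585, the last just short of 1.5-fold. SLC2A1, HK1 and IDH1 lay below 0 in all 4 with counting intervals that left out equality. HK2, PFKM, SLC16A3 and SUCLG2 also lay below 0 in all 4, but in some populations within counting error. The share of all genes that lay on the same side of 0 in all 4 populations was not counted. SLC16A3 had 20 UMIs in cycling cells of the sensitive monoculture, with 1.97 CPM in S, 1.01 in G2M and 1.73 in G1 cells.

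Called members were few. In sensitive monoculture, PFKP and GAPDH were called higher in cycling cells and IDH1 lower, against 7.67% of 11748 genes higher and 5.72% lower. In sensitive coculture cells PFKP was called higher, against 5.53% of genes higher and 1.69% lower. In resistant coculture cells SLC16A1 was called higher, against 4.66% higher and 0.982% lower, and in resistant monoculture cells PFKP was, against 4.84% and 0.771%. The phase differences of several members were larger in sensitive monoculture than elsewhere: GAPDH at 0.61 against 0.21, 0.06 and 0.10, ALDOA at 0.46 against 0.23, 0.06 and 0.11, and IDH1 at -0.87 against -0.41, -0.33 and -0.30. GAPDH had 1335 CPM in G1, 2128 in S and 1956 in G2M cells of the sensitive monoculture, and 2163, 2476 and 2099 CPM in those of the resistant monoculture. In S cells the monocultures were thus closer than in G1 cells. Cycling cells were 366 in sensitive monoculture, with a median mitochondrial percent of 18.0 against 21.2 in its G1 cells, and 3776 in resistant monoculture, with 14.5 against 16.7.

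**Figure D5:**
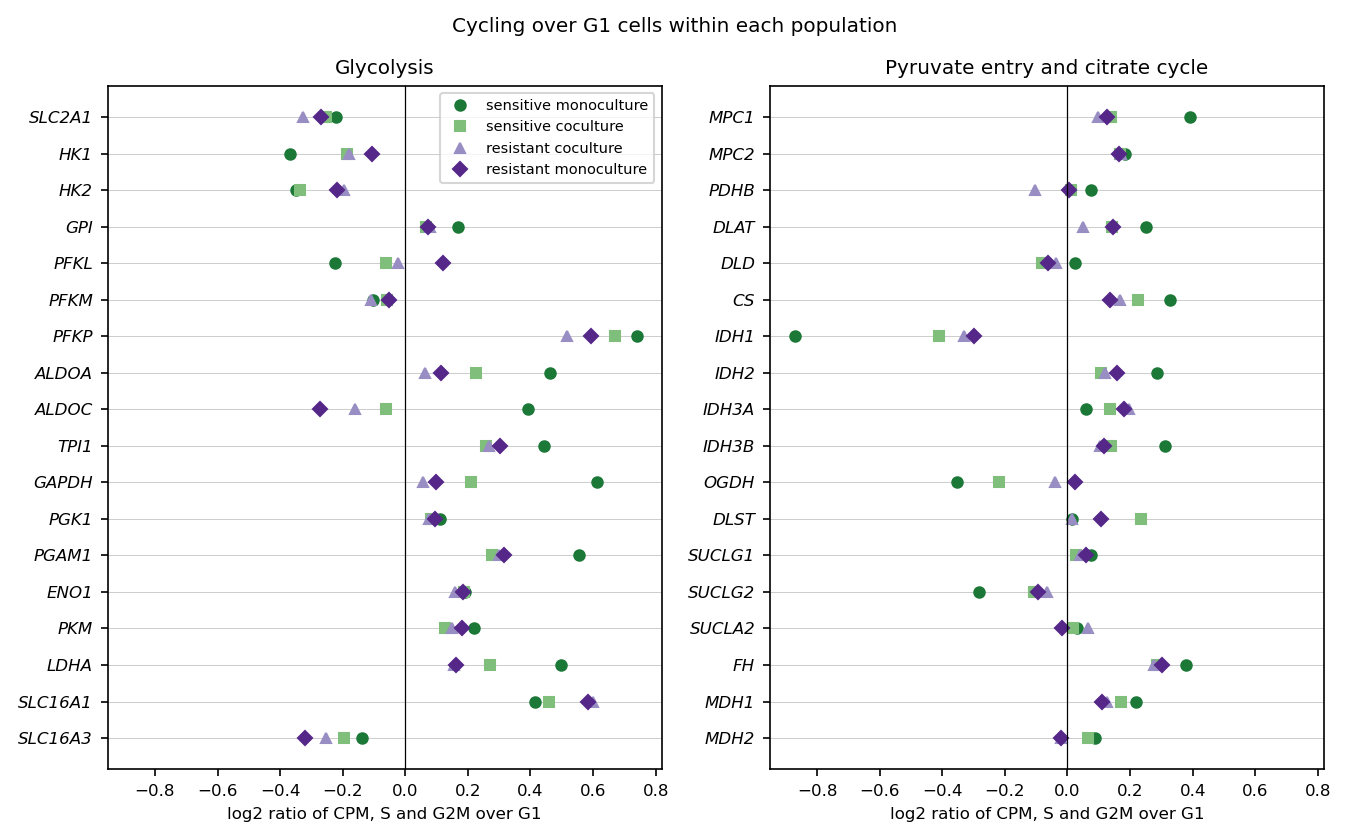
Log2 ratio of CPM of S and G2M cells over G1 cells within each population, 1 point per population for each of 36 members. PFKP and SLC16A1 lie to the right of 0 in all 4 populations, SLC2A1, HK1, HK2 and IDH1 to the left, and GAPDH reaches 0.61 in sensitive monoculture cells.

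Within G1 cells alone the comparisons between populations gave much the same members. In sensitive cells, coculture over monoculture, ALDOC at 0.96 and SLC16A3 at 0.92 were called higher and MDH1 lower, against 3.81% of genes higher and 5.07% lower. Between the monocultures 4 glycolysis members were higher, with ALDOC in place of PFKP, and 4 lower, with SLC16A1 at -0.76 added, while IDH1 and OGDH remained the 2 citrate members called lower. The background was 5.56% higher and 13.2% lower. Within the coculture SLC2A1, at 0.61, joined SLC16A3 as called higher and the same 4 members were lower, against 2.5% and 4.68%. In resistant cells no member was called between coculture and monoculture, against 0.825% and 0.0481%.

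Genes around the pathways were read from lists of 34 glycolysis neighbours, which cover gluconeogenesis, further transporters and side branches, and 32 citrate cycle neighbours. Between the monocultures 20 and 29 of them passed the minimum, with 1 and 2 called higher and 3 and 2 called lower, beside 6.66% of all genes called higher and 12.5% lower. FBP1, the fructose bisphosphatase of gluconeogenesis that opposes phosphofructokinase, had 30.6 CPM in sensitive and 13.1 CPM in resistant monoculture cells, a log2 ratio of -1.17. The D-lactate dehydrogenase gene LDHD had 1.91 and 4.43 CPM, and the inositol phosphatase gene MINPP1 11.2 and 6.38 CPM. SLC16A7, another monocarboxylate transporter gene, had 0.696 CPM in sensitive and 0.0222 CPM, or 6 UMIs, in resistant monoculture cells. DHTKD1, which encodes a dehydrogenase like OGDH in lysine breakdown, had 9.21, 16.4, 27.6 and 26.8 CPM, with both resistant populations above both sensitive ones. The mitochondrial PEP carboxykinase gene PCK2 had 5.61 and 11.8 CPM in the monocultures. The phosphatase gene PDP1, whose product switches pyruvate dehydrogenase on, had 15.1 CPM in sensitive and 9.09 CPM in resistant monoculture cells, and the succinate dehydrogenase subunit gene SDHC had 227 and 148 CPM.

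In sensitive cells coculture over monoculture, 0 of the 20 glycolysis neighbours that passed were called, and of 29 citrate neighbours 3 were higher and 2 lower, beside 5.13% and 5.91% of all genes. DHTKD1 was highest at 0.77, followed by the mitochondrial aspartate aminotransferase gene GOT2 at 0.66 and the citrate carrier gene SLC25A1 at 0.59. PDP1 at -0.85 and the succinate dehydrogenase subunit gene SDHD at -0.77 were lowest.

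Hypoxia-inducible factors are known to act on many glycolysis genes, so other targets of these factors were read beside them. Of 21 that passed, 0 were called higher and 6 lower in coculture over monoculture sensitive cells, against 5.13% and 5.91% of all genes, with a median of -0.47 against -0.05. By phase the median was -0.41 in G1, -0.20 in S and -0.21 in G2M cells. ANKRD37 had 155, 29.4, 36.4 and 28.8 CPM, and NDRG1 had 27.2, 9.01, 9.10 and 7.91 CPM. Between the monocultures 2 were higher, the stress gene DDIT4 at 0.81 and the mitophagy receptor gene BNIP3 at 0.61, and 9 lower, with ANKRD37 at -2.39 and NDRG1 at -1.66 lowest, against 6.66% and 12.5% of all genes, with a median of -0.47 against -0.07. By phase it was -0.40, -0.27 and -0.23. Within the coculture, resistant over sensitive cells, the median was 0.15 against 0.00 for all genes, with 12 above and 9 below 0. There 0 were called higher and 2 lower, against 2.04% and 4.09% of all genes. Between the sensitive populations and between the monocultures, the glycolysis medians were -0.04 and 0.04, with 9 members above and 9 below 0 in each. SLC16A3, also a known target, was higher in both. ALDOC, at 0.87 and 0.47, PFKP, at 0.48 and 0.71, ALDOA, at 0.34 and 0.68, and GAPDH, at 0.26 and 0.65, were too. GPI and LDHA also lay above 0 in both, LDHA only just between the sensitive populations. PFKL, at -0.45 and -0.82, ENO1, at -0.16 and -0.96, and HK2, at -0.38 and -0.19, were lower in both. So were HK1, PFKM, PGK1 and PGAM1, while SLC2A1, SLC16A1, TPI1 and PKM differed in sign between the comparisons. The members were not sorted into targets and others.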

How the data were processed

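The authors aligned reads and counted UMIs with Cell Ranger 3.0.2 on GRCh37, and deposited raw counts per gene and barcode. Their deposited annotation, made with Seurat from cells with 3000 to 7000 genes, 2000 to 60000 UMIs and under 30% mitochondrial UMIs, gave each cell's population, phase, cluster, UMI count and mitochondrial percent of UMIs. The study's methods also name the removal of predicted doublets and of cells with under 2 transgene UMIs, but in the monocultures the annotation shows neither filter, since every barcode within the limits is annotated (3329 and 7557). In the coculture 8351 of 12346 are, so its cells were selected where those of the monocultures were not. Of its 1263 barcodes within the limits and with at least 2 mVenus UMIs, 136 also held mCherry and 1127 were annotated as sensitive. The rule that removed barcodes was not tested. Only 1314, 1127, 3932 and 3446 cells of the 4 populations had 2 or more UMIs of their transgene. The annotated cells were used as deposited, and doublets were not removed here. A further 12 columns were not used. Rows without a symbol, 0.523% to 0.591% of UMIs, were left out, and recomputed totals differed from the deposited counts by at most 6 UMIs a cell.

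UMIs were summed per population, phase, mitochondrial class or cluster and expressed as CPM. Sums carry exact Poisson and shares exact (Clopper-Pearson) intervals. Counts of 0 were given a limit of 3 counts. Cells were thinned to 5000 UMIs. All 38 members are accounted for. Those described at most length are the 3 highest and 3 lowest glycolysis and 2 highest and 2 lowest citrate members of each comparison, members called, isoenzymes whose share moved by 5 points or more, and up to 4 genes a direction of each other list. The members and lists were chosen with earlier results of these data known. Gene positions on GRCh37 were read from the lifted GENCODE 44, which is newer than the annotation behind the counts. For scaling only, edgeR 4.0.16 under R 4.3.3 supplied TMM factors. Python 3.11.15, numpy 2.4.6, scipy 1.17.1 and pandas 2.3.3 were used, and the ratios were tested on simulated data. Alternatives covered the pseudocount, scaling, UMI minimum, phase, transgene threshold, mitochondrial limit, free RNA and fold threshold.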

Additional observations from a re-analysis of the deposited data

Results flagged for a closer look

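For 3 members coculture lay above monoculture in sensitive cells and below it in resistant cells, by a set rule. The 2 ratios had to differ by 1.5-fold or more, with counting intervals that left out equality. The same signs with a smaller difference were seen in GAPDH, at 0.26 and -0.19, and IDH3B, at 0.32 and -0.04. TPI1, at 0.14 and -0.05, and LDHA, at 0.01 and -0.34, also had them. The rule was open to the reverse signs, and no member met it that way. HK2, at -0.378 and 0.205, fell just short, and IDH1, at -0.24 and 0.27, and OGDH, at -0.23 and 0.16, also had the reverse signs. So did SLC2A1, at -0.26 and 0.08, and, close to 0 in resistant cells, ENO1 and HK1. PFKP met the rule by a narrow margin. The share of all genes with this pattern was not counted. The log2 ratio of PFKP was 0.48 in sensitive and -0.10 in resistant cells. For ALDOA it was 0.34 and -0.29, and for SLC16A3 0.84 and -0.14. With 1 library per condition the difference between the lineages was not tested. In cells under 15% mitochondrial UMIs the values were 0.31 and -0.20 for PFKP, 0.10 and -0.28 for ALDOA and 0.48 and -0.12 for SLC16A3. There PFKP and ALDOA fell short of the 1.5-fold difference of the rule.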

How the results depend on the processing

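Depth was ample for most members, but each condition was 1 library, so variation between cultures is unmeasured and counting intervals understate the uncertainty. No paired analysis was possible because the result comes from no test. The glycolysis median between the monocultures, 0.040, changed sign under several alternatives. It was -0.033 without mitochondrially encoded genes in the total, -0.007 with no UMI minimum, -0.039 in G1 cells and -0.117 under a 15% mitochondrial limit. It was -0.024 without the sensitive monoculture cells of cluster 8, an alternative added after seeing the data. With TMM factors it was 0.152. A total without mitochondrial genes and TMM factors each move all genes by nearly the same amount, here and below. Those values therefore do not set glycolysis apart from all genes. The median of all genes was -0.071 over all cells and -0.107 in G1 cells. For the other settings, here and below, it is not given, so those values do not set the lists apart from all genes either. The citrate median between the monocultures, -0.128, was -0.200 without mitochondrial genes and -0.017 with TMM. In sensitive cells the glycolysis median, -0.044, was -0.110 without cluster 8. Within the coculture it moved from -0.035 to -0.083 with a mean of 10 CPM required and -0.098 under the 15% limit. In resistant cells it moved from -0.054 to -0.125 with TMM, -0.074 with 2 transgene UMIs required and -0.103 under the 15% limit, and the citrate median from -0.099 to -0.168 with TMM. For cycling over G1 cells, glycolysis without mitochondrial genes gave 0.146 and 0.057 in sensitive cells of the monoculture and the coculture and 0.035 and 0.063 in resistant cells of the coculture and the monoculture, and 0.097 in the last with a pseudocount of 10 CPM.

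Members called higher in sensitive coculture cells, 2, went to 0 with a pseudocount of 10 CPM, a mean of 10 CPM or the 15% limit and to 7 at the lower fold threshold, 0.32 on the log2 scale. Those called lower, 0, became 1 without mitochondrial genes or in G1 cells and 7 at the lower threshold. Between the monocultures, 4 higher became 2 with a pseudocount of 10 CPM and 1 under the 15% limit, and 5 lower became 3 and, at the lower threshold, 9. Within the coculture, 1 higher became 0 with either 10 CPM setting, 2 in G1 cells or after the free RNA correction and 3 at the lower threshold, and 4 lower became 1 with a pseudocount of 10 CPM. In resistant cells that threshold gave 1 higher and 3 lower, against 0 and 0. Except in G1 cells and at the lower threshold, the share of all genes called under each alternative was not counted. These counts therefore do not show whether members lost or gained calls more often than other genes. Under the other alternatives, 129 medians and counts kept their value, medians within an interval and counts within 1.5 times. That interval was the counting interval of the middle genes of the list. It does not cover the spread between genes or between cultures. Values of single called members lost the call in 23 cases, and none reversed. The causes were not tested.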
